A study of Mus musculus with 80 samples.

Results

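The 304 reporters described here are integrations on mouse chromosome 19, carried by 4 pools of EBRTcH3 cells. These are mouse embryonic stem cells in which the ROSA26 locus gives rise to tTA, the tetracycline-controlled transactivator. They were chosen by the chromosome and position given in the deposited table and by a minimum of 10 counts in all 8 DNA libraries of their pool. Of 306 reporters on chromosome 19, 304 passed (49 in pool A, 73 in pool B, 94 in pool C and 88 in pool D), out of 10785 that passed among 10903 reporters in all. The chromosome and its proximal stretch were singled out because of their values in these same counts, so levels along the chromosome are a description and carry no test. Every pool came from cells transfected with a barcoded piggyBac tet-Off plasmid library and a transposase plasmid, of which the cells low in eGFP were collected by sorting and kept for 5 days. Small pools were then expanded for 7 days and divided into 2 cultures that grew apart for another 7 days. Each culture was spread for 72 h over doxycycline (dox) at 0, 0.01, 0.1 or 100 ng/ml, so all groups carry the same cells, tTA and reporters and differ in dox. The 2 cultures of a pool are technical replicates per the labels, and p-values from them measure only the spread between such cultures. An mPGK promoter is also named in the protocols for growth and treatment, which conflicts with the tet-Off reporter of the titles, plasmid and design text; the titles were followed. Marker genes of the cells were not analysed here, since the table holds counts of reporter barcodes.

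The assay is known as TRIP, in which many reporters are integrated in parallel. Each reporter carries its own barcode, and the barcode's count in RNA over its count in genomic DNA gives the expression per integrated copy. In a tet-Off reporter, tTA sits on its operators and drives transcription, and dox takes it off them, so that rising doses remove the activator. The dependence of a reporter on the chromatin around its integration is called a position effect. Chromosome 19 is the smallest mouse autosome.

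The barcode is the sequence that was counted, and it is the identity of a reporter in every library. Of the 304 barcodes, 302 were 16 bases long, 1 was 15 and 1 was 17. None was repeated on chromosome 19, and 18 also named a reporter elsewhere in another pool, 0 of them within the same pool; counts were kept apart by pool. Barcodes are printed as deposited, 5′ to 3′ in lower case with no base marked, for the 12 reporters on which the results below turn: the 5 with the largest increase at dox 100, the 5 with the largest decrease, and the 2 with the highest level without dox. Positions are mm9 coordinates on chromosome 19, and each name gives the pool and the strand of the integration.
Pool D, 5842667, minus: tgaccaaaggctccta
Pool B, 8844862, plus: acactaaggtttacaa
Pool C, 5802572, minus: tacgccaacttagcac
Pool D, 8781751, minus: cttccaggtctctcac
Pool B, 23151581, minus: ttacctacactatttg
Pool C, 3685074, plus: ggcgtatccctatgta
Pool C, 47756594, plus: atatactatcgttgtg
Pool A, 18650744, plus: gattaaaggacttgtt
Pool A, 45237894, plus: agccacgtaacaagag
Pool C, 29315075, plus: agatttgcaaatgacc
Pool C, 46574024, plus: ttaatctacacggcga
Pool B, 46598680, minus: agataccgagccgcgc
The base composition of the barcodes was compared as a description. The median GC share of a barcode was 40.6% for the 34 reporters that were higher at dox 100, 37.5% for the 157 that were lower and 43.8% for the 113 that were neither, with an upper quartile of 50% in each class.

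RNA libraries held 729108 to 1355706 counts at dox 100 and 1390040 to 1840870 at dox 0, and DNA libraries 923846 to 1571280, counted over reporters past the DNA minimum. Chromosome 19 took 2.27% to 3.32% of the DNA counts of a library, and its median RNA count per reporter was 312.5 to 638 at dox 0, 187 to 539 at dox 0.01, 39 to 125 at dox 0.1 and 0 to 2 at dox 100. No molecular identifiers were recorded for these PCR reads, so limits from counts cover counting error only. RNA libraries were scaled to each other. A decrease common to every reporter therefore cannot be seen, and higher or lower below is meant relative to that scaling. DNA abundance of the 304 reporters did not pass the test at any dose (edgeR, 0 lower and 0 higher; background over all reporters 0% in either direction), and 19, 17 and 22 of them had an unadjusted p under 0.05 at dox 0.01, 0.1 and 100.

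Reporters on chromosome 19 had a higher mean level than those elsewhere at the lower doses. The level of a reporter is log2 RNA/DNA, with 1 added to each count and each library divided by its total, as the mean of both cultures centred within its pool, so that 0 is the mean of all reporters of that pool. Chromosome 19 stood above all other chromosomes by 0.53 ± 0.21 at dox 0, 0.56 ± 0.26 at dox 0.01, 0.66 ± 0.19 at dox 0.1 and 0.34 ± 0.42 at dox 100 on the log2 scale (SD, n = 4 pools). The difference was above 0 in 4 of 4 pools at the lower 3 doses and in 3 of 4 at dox 100, where pool C had −0.18. These differences were not tested.

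Levels at dox 0 were uneven along the chromosome. Integrations ran over positions 3269836 to 61086416 with a median gap of 88583 bp and a largest gap of 1.83 Mb, 144 of them on the plus and 160 on the minus strand. In windows of 5 Mb, the median level at dox 0 was 2.11 up to 5 Mb (15 reporters) and 2.05 between 5 and 10 Mb (25 reporters). It was 0.37 in the next window (30 reporters) and −0.42 between 15 and 20 Mb (13 reporters), and from there to 45 Mb it stayed between −0.03 and 0.66. A further rise to 1.72 lay between 45 and 50 Mb (25 reporters). The last window, past 60 Mb, had −0.90 over only 5 reporters.

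**Figure D1:**
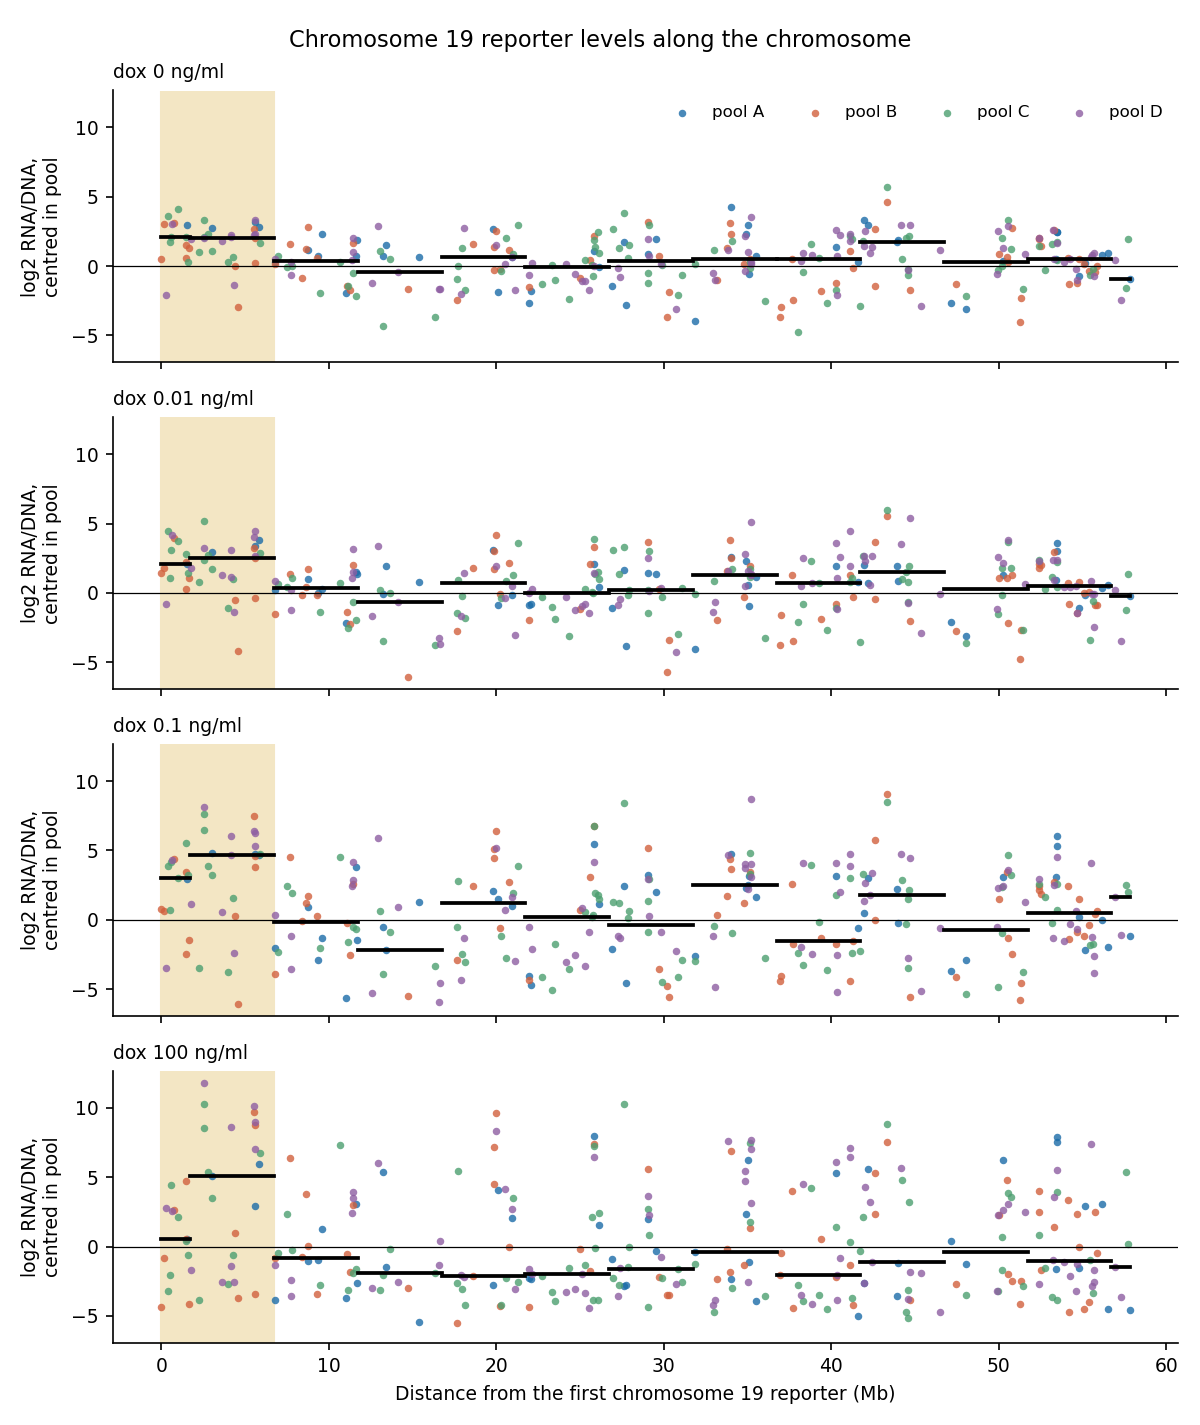
Level (log2 RNA/DNA centred in the pool) of the 304 chromosome 19 reporters against distance from the first reporter in Mb, 1 panel per dox dose, points coloured by pool, bars the medians of 5 Mb windows; the shaded stretch is the proximal domain. The medians of the first 2 windows are 0.55 and 5.11 at dox 100, and 2.11 and 2.05 at dox 0.

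Of the 5 highest reporters at dox 0, 2 were neighbours and the other 3 lay apart. The pool C reporter at 46574024 gave 11982 and 14479 RNA counts beside 274 and 394 DNA counts at dox 0, a level of 5.71 ± 0.36 (SD, n = 2 cultures). The pool B reporter at 46598680, 24656 bp away and on the other strand, had 6752 and 7071 RNA counts beside 336 and 645 DNA counts, a level of 4.60 ± 0.60. These neighbours come from separate pools, and both are among the highest at dox 0. They were followed by reporters at 37276762 (pool A, level 4.28), 4268246 (pool C, 4.14, inside the proximal domain) and 30867108 (pool C, 3.81), with SDs between cultures of 0.93, 2.21 and 0.62. At 4268246 the DNA counts at dox 0 were only 196 and 20, so its place rests on a library with few DNA counts. The 5 lowest, at 41278895 and 16494114 (pool C), 54543247 (pool B), 35139884 (pool A) and 19639349 (pool C), had levels between −4.76 and −3.70 and at most 39 RNA counts in any dox 0 culture, so their levels were limited by depth.

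The dose moved these high reporters in unlike ways. At 46574024 dox 0.01 gave 17033 and 17746 RNA counts, dox 0.1 gave 22673 and 15844, and dox 100 gave 5381 and 6791. Its log2 change was 1.63 ± 0.36 (SE, edgeR adjusted p = 0.00581) at dox 0.1, which passed, and 0.36 ± 0.36 (adjusted p = 0.403) at dox 100, which did not. The neighbour at 46598680 was higher at dox 0.1, by 3.34 ± 0.58 (adjusted p = 0.0013), and did not pass at dox 100 (0.42 ± 0.57, adjusted p = 0.556). The reporter at 37276762 held 862 and 1063 RNA counts without dox, 372 and 403 at dox 0.1, and 0 and 1 at dox 100. With other scalings the increase at 46574024 at dox 0.1 lost its call (adjusted p = 0.14 when DESeq2 size factors were used and 0.169 for library totals).

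Reporters without any RNA count appeared at dox 0.1 and were most numerous at dox 100. The number with 0 RNA counts in both cultures was 0 of 304 at dox 0 and at dox 0.01. It was 37 (12.2%) at dox 0.1 and 140 (46.1%) at dox 100. Across pools the share ranged from 9.09% in pool D to 15.1% in pool B at dox 0.1, and from 38.8% in pool A to 52.1% in pool C at dox 100. The share was higher at dox 100 than at dox 0.1 in 4 of 4 pools. Since the chromosome was singled out for its values in these same counts, no test is given. With a single culture the share was 15.8% or 25% at dox 0.1 and 53.6% or 57.6% at dox 100. Over all reporters the share was 0.278%, 0.658%, 18.5% and 48.4% in dose order. RNA in both cultures was found for 303, 301, 217 and 106 of the 304 reporters.

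**Figure D2:**
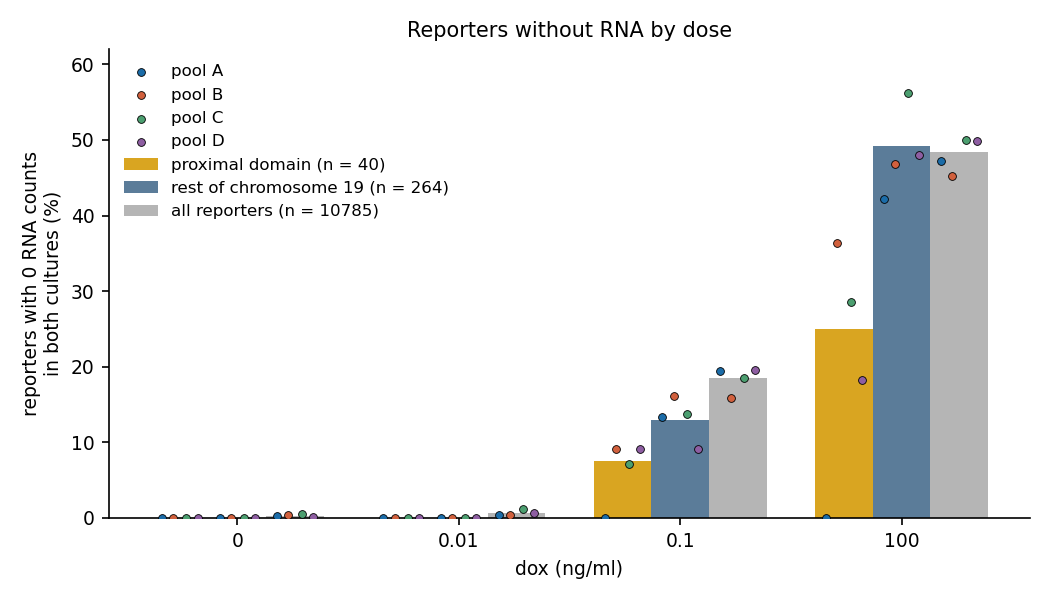
Percentage of reporters with 0 RNA counts in both cultures at each dox dose, for the proximal domain (40 reporters), the rest of chromosome 19 (264) and all reporters (10785); bars are pooled shares and points the 4 pools. At dox 100 the bars stand at 25%, 49.2% and 48.4%, and pool A has 0% in the proximal domain, where it holds 4 reporters.

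Loss at the middle dose mostly persisted. Of the 37 reporters without RNA at dox 0.1, 34 had none at dox 100, beside 140 of all 304. The 58 reporters with RNA in only 1 of the cultures at dox 100 had a median of 71.5 counts there, between 1 and 198. Reporters that ended without RNA had started lower, which cannot be told apart from depth, since low counts reach 0 with a smaller decrease. Their median level at dox 0 was −0.20, with a median of 197 RNA counts, against 1.56 and 749.8 counts for the 106 reporters with RNA in both cultures at dox 100; the levels overlapped, between −4.76 and 3.61 for those without RNA and between −1.84 and 5.71 for those with it.

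In the fit over all reporters, 0 of the 304 reporters were lower (background 0%) and 0 higher (background 0.0185%) at dox 0.01 than at dox 0 (edgeR quasi-likelihood test of the RNA/DNA ratio, adjusted p under 0.05). At that dose 19 had an unadjusted p under 0.05, and DESeq2's Wald test called 0 lower and 2 higher. At dox 0.1, 57 were lower (18.8%, background 19.8%) and 31 higher (10.2%, background 9.07%) than at dox 0. At dox 100, 157 were lower (51.6%, background 50.4%) and 34 higher (11.2%, background 10.9%). The shares on chromosome 19 were close to those of all reporters in each direction. The median log2 change over the 304 was −0.08 at dox 0.01, −0.78 at dox 0.1 and −3.43 at dox 100, beside −0.12, −0.80 and −4.12 over all reporters. With reporters at 0 counts set at their fold bound, the median at dox 100 was −2.46 over the 304 and −2.23 over all reporters, so the sizes at dox 100 are not known beyond that. Without dox 100 culture 1 or 2 the fitted median of −3.43 was −7.47 or −6.28. The count of 57 lower at dox 0.1 was 33 or 31 without dox 0 culture 1 or 2, 29 with DNA counts as an offset and 116 by DESeq2's Wald test, and the 157 lower at dox 100 were 101 with a DNA minimum of 100, which keeps fewer reporters. With DESeq2 size factors the calls at dox 0.1 were 90 lower and 20 higher, and with library totals 102 and 19. The calls at dox 100 were 177 lower and 24 higher with size factors, and 187 and 23 with library totals. So part of the 34 higher calls depends on the scaling. These scalings shifted the median of all reporters by −0.97 and −1.16 at dox 0.1, and by −0.71 and −1.02 at dox 100.

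The calls at both doses rest on the same dox 0 libraries, so they are not independent. At dox 100 all 34 higher reporters had RNA in both dox 100 cultures, whereas 131 of the 157 lower ones had 0 counts in both, 12 had RNA in 1 and 14 in both. Of the 113 that were neither, 58 had RNA in both cultures and 9 had none. Higher reporters had a median level of 1.67 at dox 0, those with neither call 0.71 and lower ones 0.28, and 20 of the 34 higher ones were on the plus strand, against 70 of the 157 lower ones.

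**Figure D3:**
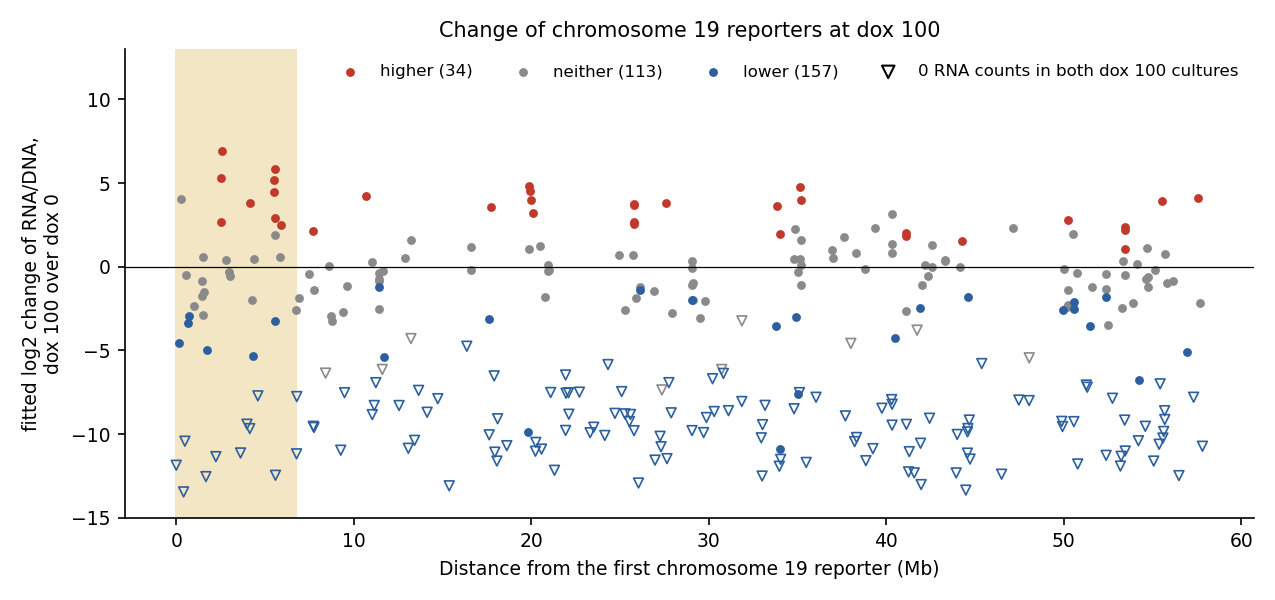
Fitted log2 change of RNA/DNA at dox 100 over dox 0 for each of the 304 reporters against distance from the first reporter in Mb, coloured by call; open triangles had 0 RNA counts in both dox 100 cultures, where the fitted size depends on the prior count. The 34 higher reporters lie between 1.06 and 6.94, and 9 of them are in the shaded proximal domain.

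The 5 largest increases at dox 100 included 4 from the proximal domain. The pool D reporter at 5842667 gave 3374 and 3169 RNA counts without dox, then 5298 and 3722 at dox 0.01, 26846 and 22105 at dox 0.1, and 108935 and 80959 at dox 100, while its DNA held 869 and 772 counts at dox 100, against 1098 and 898 at dox 0. Both dox 100 cultures were far above both dox 0 cultures, and the log2 change was 6.94 ± 0.27 (SE, edgeR adjusted p = 5.08e-08). At dox 100 this single barcode took 79.2% of the chromosome 19 RNA counts of pool D. The pool C reporter at 5802572, 40095 bp away, had 11780 and 10736 RNA counts at dox 100, against 752 and 877 at dox 0, for a log2 change of 5.33 ± 0.49 (adjusted p = 5.69e-06). For both of these reporters, which come from separate pools and lie on the minus strand, the dox 100 and dox 0 counts do not overlap.

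The pool B reporter at 8844862 had 3582 and 4916 RNA counts at dox 100 against 371 and 359 at dox 0, and its log2 change was 5.83 ± 0.58 (SE, edgeR adjusted p = 1.02e-05). The pool D reporter at 8781751 had 2875 and 2830 counts at dox 100 against 266 and 230 at dox 0 (5.16 ± 0.46, adjusted p = 6.26e-06). Each of these reporters gave far more of its library's RNA at dox 100, in both cultures. The fifth, the pool B reporter at 23151581, lay outside the domain, with 2048 and 2951 counts at dox 100 against 802 and 676 at dox 0 (4.86 ± 0.40, adjusted p = 3.06e-06). Its nearest neighbour at 23140463 (pool B), 11118 bp away, had 501 and 141 counts at dox 100 against 868 and 1017 at dox 0 and did not pass (1.04 ± 0.79, adjusted p = 0.282). Its further neighbours at 23226250 (pool B) and 23242099 (pool D), all 3 named after their values were seen, were higher by 4.55 and 3.97, and another neighbour at 23067668 (pool A) was lower, with 0 and 1 RNA counts at dox 100 against 851 and 1015 at dox 0. All 5 of the largest increases kept their call under every alternative setting of the fit that was run and that retained them.

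The 5 largest decreases at dox 100 were reporters of middling to high level that ended at 0. The pool C reporter at 3685074 had 0 and 0 RNA counts at dox 100, against 911 and 1053 at dox 0. With a floor of 3 counts over both cultures, its RNA/DNA at dox 100 was at least 523-fold lower in read counts. Its DNA held 85 and 128 counts at dox 0 against 319 and 236 at dox 100, so part of this bound comes from the DNA counts. The same bound was at least 474-fold lower for the pool C reporter at 47756594, which had 0 and 0 counts at dox 100 against 1552 and 1736 at dox 0. It was at least 377-fold lower at 18650744 (pool A), 368-fold lower at 45237894 (pool A) and 359-fold lower at 29315075 (pool C). All 5 had a dox 0 level above 0, between 0.63 and 3.61, and all passed the test (largest edgeR adjusted p = 7.76e-05). Among the 131 lower reporters with 0 counts the bound had a median of 35.4, and for the weakest of them it was 1.21, so depth at dox 0 decides how large a decrease could be seen.

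They differed in how far they had gone at dox 0.1. The reporter at 18650744 still had 335 and 557 RNA counts there, against 1780 and 1871 at dox 0, and did not pass (log2 change −0.79 ± 0.43, SE, edgeR adjusted p = 0.204). The reporter at 3685074 had 184 and 408 counts at dox 0.1 and did not pass either (−0.81 ± 0.84, adjusted p = 0.539). The other 3 were already lower at dox 0.1, by −1.84 at 29315075, −3.54 at 47756594 and −4.09 at 45237894. The 5 largest decreases at dox 0.1 were in other reporters, at 44408179 (pool B), 26588366, 53203289 and 33139968 (pool C) and 58963958 (pool D), each with 0 RNA counts in both dox 0.1 cultures and 80 to 276 counts in the dox 0 cultures. The 5 largest increases at dox 0.1 were at 5842667, 38472374, 23151581, 8788423 and 38423721, with log2 changes between 3.73 and 5.09.

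The proximal domain, taken as every reporter up to position 10000000, held 40 reporters (4 in pool A, 11 in pool B, 14 in pool C and 11 in pool D), and 36 of them had a dox 0 level above 0, beside 160 of the other 264. It was chosen for its level. It stood above the rest of chromosome 19 by 1.54 ± 0.63 at dox 0, 1.82 ± 0.70 at dox 0.01, 2.67 ± 1.14 at dox 0.1 and 2.64 ± 1.26 at dox 100 in log2 units (SD, n = 4 pools); this held in 4 of 4 pools at each dose. The smallest pool difference was in pool B at each dose, 0.87 at dox 100. Its lowest reporter at dox 0, at 7870886 (pool B), had a level of −2.94, so the domain was not uniformly high. Without the reporter at 5842667, a check added after the values were seen, the difference at dox 100 was 2.44. With the domain drawn up to 15000000 it was 0.81, 0.89, 1.15 and 1.32 in dose order.

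Within the domain the 5 Mb windows parted as the dose rose. Over all reporters 50.4% were lower and 10.9% higher at dox 100, and 30.7% had RNA in both cultures. Between 5 and 10 Mb, 9 of 25 reporters (36%) were lower and 9 (36%) higher, and 15 had RNA in both cultures. Up to 5 Mb, 7 of 15 reporters (46.7%) were lower and 0 higher, and 4 had RNA in both cultures, so the share lower was near that over all reporters. Against the rest of the chromosome, the stretch between 5 and 10 Mb stood at 1.34 ± 0.85 at dox 0, 1.61 ± 1.17 at dox 0.01, 3.01 ± 1.14 at dox 0.1 and 3.68 ± 0.92 at dox 100 (SD, n = 4 pools). The stretch up to 5 Mb stood at 1.53 ± 1.08, 1.78 ± 0.62, 1.58 ± 1.58 and 0.77 ± 1.14 at the same doses, with 1 pool below 0 at dox 0.1 (pool D) and at dox 100 (pool B). Pools count equally in these means, although some hold very few reporters there. The pool A value rests on the reporter at 4794407 alone, with 133 and 0 RNA counts at dox 100. The pool D value rests on the reporters at 3534314 and 3913542. The median log2 change at dox 100 was 0.41 between 5 and 10 Mb, −2.85 up to 5 Mb and −4.66 over the rest of the chromosome. With reporters at 0 counts set at their fold bound, the first of these medians stayed at 0.41 and the second at −2.85, and the rest of the chromosome had −2.55, so no order between the stretch up to 5 Mb and the rest is read from them. The sign for the stretch between 5 and 10 Mb is relative to the scaling, since the whole domain's median of −1.60 became −2.44 under DESeq2 size factors and −2.71 under library totals; at dox 0.1 the domain's median of 0.33 was −0.58 and −0.86 with these scalings.

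**Figure D4:**
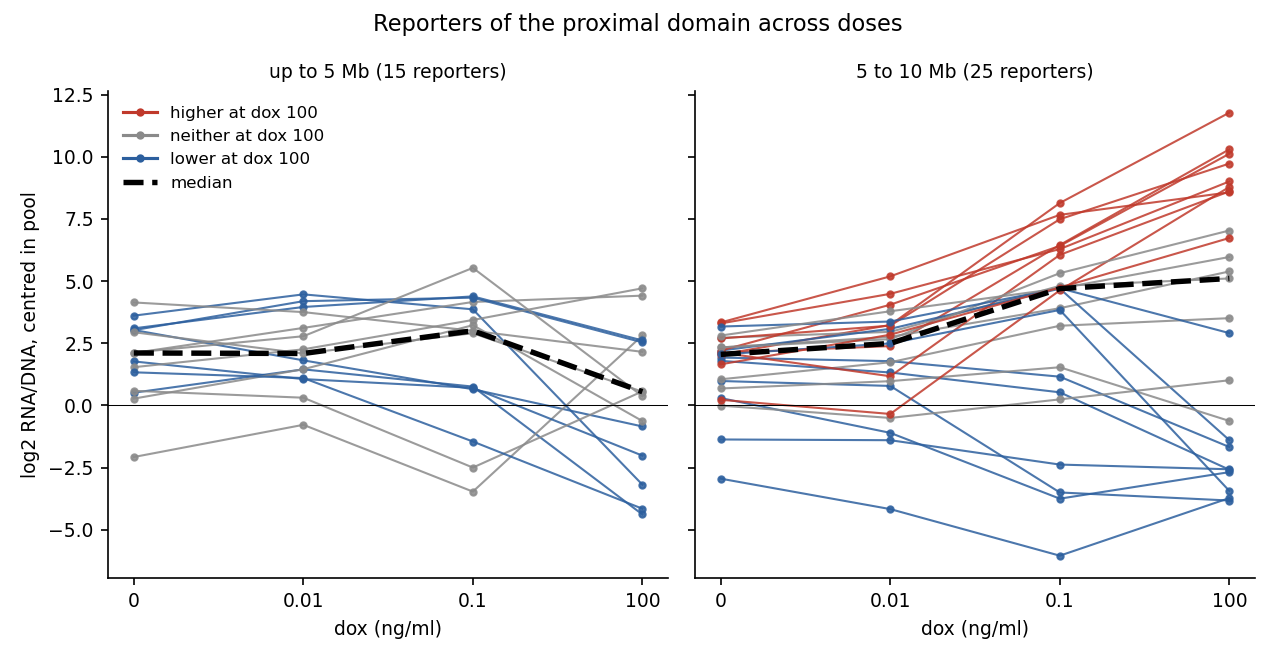
Level (log2 RNA/DNA centred in the pool) of the 40 reporters of the proximal domain at each dox dose in ng/ml, for the 15 reporters up to 5 Mb (left) and the 25 between 5 and 10 Mb (right), 1 line per reporter coloured by its call at dox 100, the dashed line the median. The medians are 0.55 and 5.11 at dox 100, and 2.11 and 2.05 at dox 0.

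Up to 5 Mb, reporters kept RNA to different degrees. The pool C reporter at 3845039 kept 443 and 301 RNA counts at dox 100 against 1460 and 1520 at dox 0 and did not pass the test (log2 change −0.49 ± 0.38, SE, edgeR adjusted p = 0.29). The pool B reporter at 4015701 had 159 and 97 counts at dox 100 against 6404 and 6183 at dox 0 and was lower by −2.96 ± 0.42 (adjusted p = 0.000126). The pool B reporter at 3269836, the first on the chromosome and 1 of 10 of the domain without RNA at dox 100, had 0 and 0 counts at dox 100 against 770 and 1038 at dox 0, at least 119-fold lower. The pool C reporter at 4268246, whose dox 0 level is uncertain, had 0 and 60 counts at dox 100 against 818 and 912 at dox 0. Its cultures disagreed at dox 100, and its change did not pass (−2.36 ± 1.76, adjusted p = 0.267). Apart from 3269836 and 4268246, the reporters of this paragraph were named after their values were seen.

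Between 5 and 10 Mb, 7 of the 9 higher reporters sat in 2 groups, and the other 2, at 7405754 (pool D) and 9149205 (pool C, higher by 2.51), lay outside them. A group here is a run of 3 or more reporters linked by gaps of up to 100 kb. Only runs that hold a higher reporter were taken, so no clustering of higher reporters is read from these groups. The first group spans 40095 bp at 5802572, 5820287 and 5842667, with 3 of 3 reporters from 2 pools higher. The reporter at 5820287 (pool C, plus strand) had 1182 and 1008 RNA counts at dox 100 against 979 and 976 at dox 0. Its log2 change of 2.65 ± 0.97 (SE, edgeR adjusted p = 0.0319) was the weakest of the group. Its DNA differed between the cultures without dox, 282 against 56, and its dox 0 level had an SD of 1.45. This call thus rests partly on a library with few DNA counts, and whether it holds under other scalings is not given. The next reporter, at 6046648 (pool C), had 511 and 1491 counts at dox 100 against 1979 and 2211 at dox 0 and did not pass (0.41 ± 0.56, adjusted p = 0.553). The second group lies between 8781751 and 8861663, with 7 reporters from 3 pools, of which 4 were higher. Within it the pool B reporter at 8861488 had 0 and 0 RNA counts at dox 100 against 1066 and 1026 at dox 0, and the pool A reporter at 8861663, 175 bp away on the other strand, had 133 and 328 counts at dox 100 against 5120 and 5775 at dox 0. Both were lower, the second by −3.22 ± 0.46 (SE, edgeR adjusted p = 0.000144). Within 79.9 kb this group thus ranged between a log2 change of 5.83 at 8844862 and a ratio at least 177-fold lower at 8861488. The reporters 7963 bp apart at 7405754 and 7413717 (both pool D) also parted, with 3512 and 2316 counts at dox 100 against 688 and 719 at dox 0 for 7405754, and with 0 and 0 counts at dox 100 against 483 and 406 at dox 0 for 7413717.

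The share of chromosome 19 RNA counts that came from the domain varied widely between pools. Averaged over pools it was 21.8% at dox 0, 23.9% at dox 0.01, 30.6% at dox 0.1 and 47.9% ± 32.5 at dox 100 (SD, n = 4 pools), while its share of DNA counts stayed between 11.5% and 12.8%. At dox 100 it was 7.97% in pool A, 57.2% in pool B, 41.2% in pool C and 85.9% in pool D, against 22.5%, 27.2%, 19.4% and 17.9% in these pools at dox 0, so it was lower at dox 100 in pool A and higher in the other 3. Without the reporter at 5842667 the pool D share was 32.2% at dox 100 and 12.4% at dox 0. Outside the domain in pool A, the reporter at 29082967 took 45.7% of the chromosome 19 RNA at dox 100. Over the chromosome, the top reporter of a pool held 49.9% ± 20.3 of its RNA counts at dox 100 and 13.1% ± 6.25 at dox 0 (SD, n = 4 pools).

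Clusters were taken as chains of 4 or more reporters linked by gaps of up to 50 kb. There were 17 chains with 83 reporters. A chain was said to keep RNA when at least 50% of its reporters had RNA in both dox 100 cultures. It was said to lose RNA when all had 0 counts in both. By these rules 12 kept RNA, 0 fully lost it and 5 did neither. The rule for losing is much the stricter, so the numbers 12 and 0 cannot be compared. Of the 59 reporters in the 12 keeping chains, 40 had RNA in both cultures and 12 had none, and 14 were higher and 20 lower at dox 100, beside 10.9% higher and 50.4% lower of all reporters; nothing is read from these counts, since the chains were chosen by their RNA at dox 100. Without pool B, C or D there were 7, 5 or 4 keeping chains. Leaving out a pool removes its reporters, so chains of any class can become fewer. Of the 12 keeping chains, 1 lay in the proximal domain, 10 held at least 1 reporter without RNA, and 6 held no higher reporter. The only other chain of the domain, from 4714313 to 4794407, did neither. The group from 5802572 to 5842667 has 3 reporters and is too short for a chain. RNA in both cultures was found for 46 of the 83 reporters in chains (55.4%), beside 60 of the 221 outside (27.1%). Membership of a chain depends on position alone. The chromosome and the chain rule were chosen with earlier results of these data known, so no test is given.

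**Figure D5:**
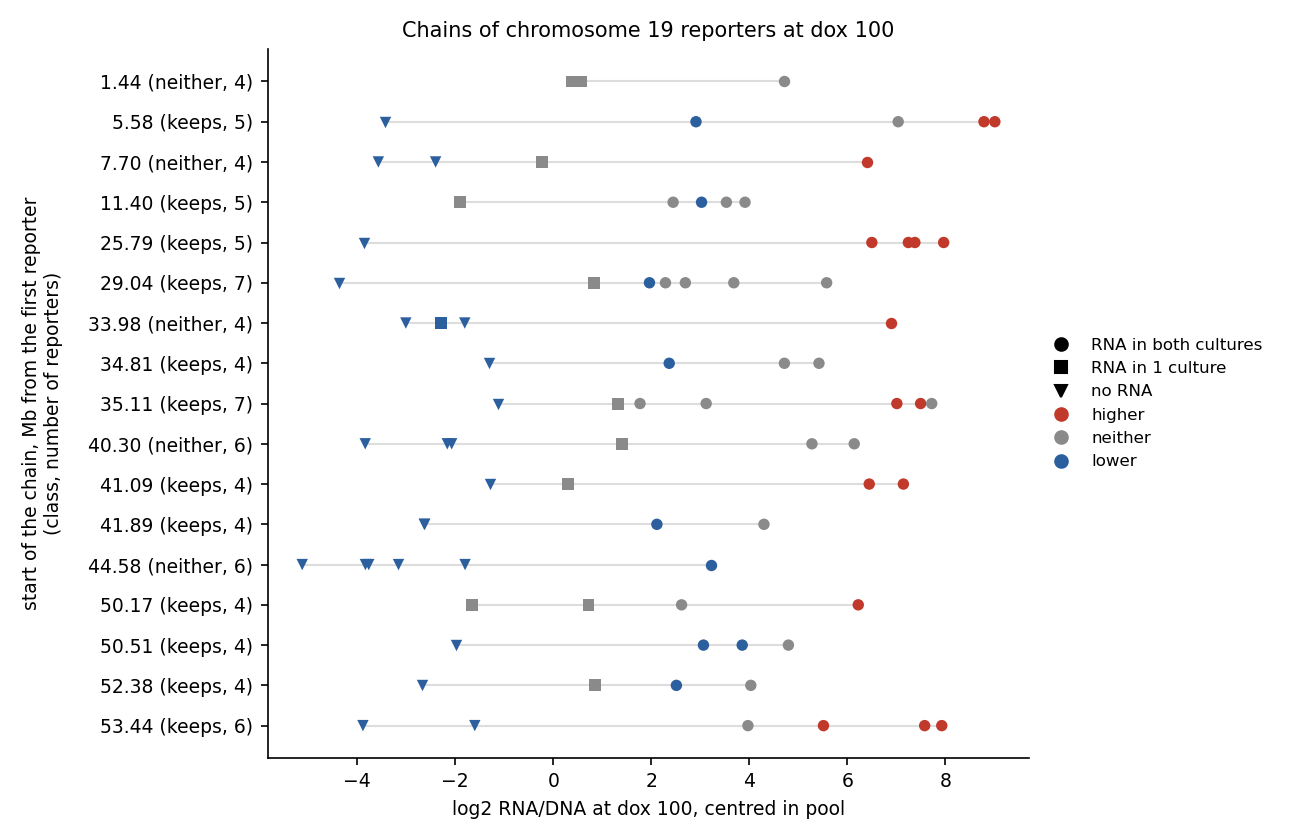
Level at dox 100 (log2 RNA/DNA centred in the pool) of the 83 reporters in the 17 chains, 1 row per chain in order of distance from the first reporter in Mb, with class and number of reporters; the marker gives in how many cultures RNA was found and the colour the call at dox 100. In 12 chains RNA is kept by at least 50% of the reporters; for reporters without RNA the level is set by the pseudocount and the DNA count.

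All 17 chains, keeping RNA or not, held reporters of at least 3 pools. The chain from 29063821 to 29084979, singled out after its values were seen, has 5 reporters from 4 pools over 21158 bp, and 4 of them, 1 from each pool, were higher at dox 100. The pool A reporter at 29082967 had 9300 and 11005 RNA counts at dox 100 against 2734 and 3105 at dox 0, a log2 change of 3.78 ± 0.24 (SE, edgeR adjusted p = 7.92e-07). Those at 29081060 (pool B), 29082208 (pool C) and 29084979 (pool D) were higher by 2.65, 2.56 and 3.71. The exception was the pool C reporter at 29063821, 17239 bp before the next, with 0 and 0 counts at dox 100 against 192 and 236 at dox 0. The same 4 reporters were higher at dox 0.1, and the median level of the chain was 1.12 at dox 0, 2.06 at dox 0.01, 5.46 at dox 0.1 and 7.24 at dox 100.

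The 2 longest chains had 7 reporters from 4 pools each. In the chain from 32311172 to 32396788, 5 of 7 reporters had RNA in both cultures at dox 100, 1 had none, 2 were lower and 0 higher. The pool B reporter at 32311172 had 687 and 1055 RNA counts at dox 100 against 3892 and 4199 at dox 0 (log2 change −0.09 ± 0.48, SE, edgeR adjusted p = 0.89), which did not pass. The pool C reporter at 32329484 had none at dox 100 against 221 and 203 at dox 0, while the pool A reporter at 32328341, 1143 bp away, had 108 and 86 against 1163 and 1497. In the chain from 38383707 to 38472374, 5 of 7 had RNA in both cultures, 1 had none, 1 was lower and 2 higher. Its reporter at 38423721 (pool C) had 1512 and 1268 counts at dox 100 against 172 and 146 at dox 0 (4.79 ± 0.52, adjusted p = 1.69e-05). Its reporter at 38472374 (pool D) had 10068 and 6818 counts at dox 0.1 against 4071 and 4520 at dox 0, the second largest increase at dox 0.1, and did not pass at dox 100 (1.60 ± 0.68, adjusted p = 0.0604).

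The next largest keeping chain lay at 56707085 to 56743659 (6 reporters, 3 pools). Keeping chains of 5 reporters lay at 8844862 to 8861663, at 14673632 to 14716505 and at 29063821 to 29084979. By position the first of these ties was taken, and its members at 8844862, 8861488 and 8861663 are described above. Its reporter at 8847612 (pool D) was higher at dox 100 by 2.90 ± 0.47 (SE, edgeR adjusted p = 0.000289). Its reporter at 8850513 (pool D) did not pass at dox 100 (1.87 ± 1.33, adjusted p = 0.247). In the chain from 56707085, 4 of 6 had RNA in both cultures, 2 had none, 3 were higher and 2 lower. The pool A reporter at 56738322 had 5589 and 6399 RNA counts at dox 100 against 3953 and 4503 at dox 0 and was higher by 2.38 ± 0.25 (SE, edgeR adjusted p = 1.53e-05). The other higher ones rest on the scaling. At 56743659 (pool D) the increase of 1.06 (adjusted p = 0.0217) turned to −0.47 with library totals (adjusted p = 0.236), and at 56739911 (pool A) the increase of 2.17 (adjusted p = 0.0307) had an adjusted p of 0.331 with library totals.

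No chain of 4 or more fully lost RNA, which required 0 counts in every reporter of the chain. The nearest, from 47845968 to 47994238, has 6 reporters from 3 pools over 148270 bp, and 5 of them had 0 counts in both dox 100 cultures. All 6 were lower at dox 100, and 2 of them at dox 0.1. The pool D reporter at 47994238 had 0 and 0 RNA counts at dox 100 against 739 and 643 at dox 0, at least 140-fold lower, although it still had 505 and 238 at dox 0.1. The exception was the pool C reporter at 47902778, with 96 and 93 counts at dox 100 against 1035 and 1328 at dox 0 (log2 change −1.80 ± 0.55, SE, edgeR adjusted p = 0.0142). The pool C reporter at 47756594, among the largest decreases, lies 89374 bp before this chain. With chains of 3 or more, a definition added after the values were seen, there were 23 chains, of which 13 kept and 2 fully lost RNA. The 2 lay at 25207825 to 25231180 (3 pools) and at 36231591 to 36303539 (2 pools); the first had a median level of −1.49 at dox 0 and 24 to 274 RNA counts in the dox 0 cultures, and the second had 1274 and 1618 counts at dox 0 in its strongest reporter, at 36279790 (pool C), which was at least 270-fold lower at dox 100.

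Away from these clusters, the window between 15 and 20 Mb had few reporters with RNA. Of its 13 reporters, 6 had no RNA at dox 0.1 and 9 at dox 100, beside 18.5% and 48.4% of all reporters, and 8 were lower and 0 higher at dox 100, beside 50.4% and 10.9%. The 9 had fold bounds between 0.855 and 377, with a median of 15.3, so for some of them no decrease could be measured. The window between 25 and 30 Mb, which holds the chain at 29063821, had 18 lower and 4 higher reporters among 27. Its 17 reporters without RNA at dox 100 had fold bounds between 2.6 and 359.

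Levels of neighbouring reporters were correlated. Over the 33 adjacent pairs less than 10 kb apart that came from different pools, and so share no library, Pearson's r across pairs was 0.52 at dox 0, 0.59 at dox 0.01, 0.75 at dox 0.1 and 0.49 at dox 100 (Spearman's rho 0.52, 0.59, 0.74 and 0.44). Over the 88 such pairs 10 to 100 kb apart, r was 0.37, 0.34, 0.35 and 0.26. A reporter can be in 2 pairs, so the pairs are not independent. For reporters without RNA, 37 at dox 0.1 and 140 at dox 100, the pseudocount and the DNA count set the level. This enters the correlations, differences and SDs given here for these doses. The median difference within the 33 pairs was 2.02 at dox 100 and 1.12 at dox 0 on the log2 scale, as the spread between reporters also widened: the noise-corrected SD on chromosome 19 (from the covariance between cultures over reporters, as its square root) was 1.73 ± 0.16, 2.03 ± 0.29, 3.14 ± 0.25 and 3.66 ± 0.30 in dose order (SD, n = 4 pools), beside 1.99, 2.31, 3.24 and 3.42 over all reporters.

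Integrations on the plus strand had a higher mean level than those on the minus strand, by 0.43 ± 0.47 at dox 0, 0.46 ± 0.26 at dox 0.01, 0.58 ± 0.50 at dox 0.1 and 0.53 ± 0.87 at dox 100 (SD, n = 4 pools; above 0 in 4, 4, 4 and 3 pools). The difference was smaller than the SD between pools at dox 0 and dox 100, and it was not tested. Near the DNA minimum, members with few DNA counts were the pool D reporters at 56507213 (lowest DNA count 12; RNA 0 and 0 at dox 100 against 330 and 243 at dox 0) and 8850513 (14, a tie with 38141340 in pool D; RNA 488 and 293 at dox 100 against 300 and 375 at dox 0). Those just left out were the pool D reporters at 32399339 (8; RNA 0 and 0 at dox 100 against 40 and 44 at dox 0) and 37978834 (6; RNA 87 and 0 at dox 100 against 255 and 218 at dox 0).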

How the data were processed

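The authors deposited 1 table of raw read counts per barcode from RNA and genomic DNA, with chromosome, position, strand and pool, per the file headers. The submitters' processing notes list Bowtie2 2.0 and the build mm9, without their roles. Of 80 samples, 64 are RNA or DNA libraries; 16 mapping libraries enter only through the positions, and 0 columns of sample values were left unused. Gene annotation was not used here.

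Reporters with at least 10 counts in all 8 DNA libraries of their pool were kept. For each pool, edgeR 4.0.16 in R 4.3.3 fitted 16 libraries with assay, dose and their interaction (TMM within assay, quasi-likelihood test, Benjamini-Hochberg adjustment over all reporters of the pool, threshold 0.05). The model was also run on simulated counts, whose outcome is not reported here. The SE beside a log2 change was obtained as the absolute change divided by the square root of F. Where a group had only 0 counts, a floor of 3 counts over the group bounds the fold. Alternatives were DESeq2 1.42.0, other scalings, a DNA offset, other DNA minima, pseudocounts, domains and chains, the replicate block, and leaving out each culture or pool. The rest used matplotlib 3.10.9, scipy 1.17.1, pandas 2.3.3 and numpy 2.4.6 under Python 3.11.15.

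Chromosome, domain, windows, chains and tests were chosen with earlier results of these data known. Named reporters are the 5 highest and 5 lowest at dox 0, the 5 largest increases and 5 largest decreases at dox 100 and at dox 0.1 among those past the threshold that moved the same way in both cultures, any past it at dox 0.01, the highest and lowest of the proximal domain at dox 0 and dox 100, the members of the 4 largest chains that keep or fully lose RNA, and 2 reporters on either side of the DNA minimum. Not every member of those chains is given by name, and some reporters outside the rule are given as neighbours of named ones.

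Culture numbers pair the samples, since the labels say that each culture was split over the doses. Deviations of same-numbered samples from their group means had correlations between −0.0461 and 0.0464 for RNA/DNA and between −0.0513 and 0.0463 for DNA. The fit without the block is reported. No libraries of a group agreed within sampling noise (chi-square over its degrees of freedom at least 4.51).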

Additional observations from a re-analysis of the deposited data

How the results depend on the processing

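Settings were changed 1 at a time. For reporters lower at dox 0.1 the count was 57 as reported, 90 with DESeq2 size factors, 102 for library totals, 29 with DNA counts as an offset, 116 by DESeq2's Wald test, and 31 to 73 leaving out a culture (33 and 31 without dox 0 culture 1 or 2). For those higher at dox 0.1 it was 20 with size factors and 19 for library totals, beside 31. The higher count of 34 at dox 100 was 24 with size factors and 23 for library totals, and the lower count was 177 and 187. At dox 100 the lower count of 157 was 101 with a DNA minimum of 100, which keeps fewer reporters, and 125 to 192 leaving out a culture; at dox 0.01 the Wald test called 2 higher, beside 0. With the replicate block, which uses the pairing of cultures, 153 were lower and 31 higher at dox 100, and 50 and 28 at dox 0.1; among named reporters the block ended 1 call, at 56739911 at dox 0.1.

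The median log2 change of −3.43 at dox 100 was −4.49 for library totals, −2.25 with a DNA minimum of 100, −2.46 with reporters at 0 counts at their fold bound (a check added after seeing the data), and −7.47 to −3.52 leaving out a culture (−7.47 and −6.28 without dox 100 culture 1 or 2). At dox 0.1 the median of −0.78 was −1.69 with size factors and −1.83 for library totals, and at dox 0.01 the median of −0.08 was −0.29 and −0.27. Chromosome 19 minus other reporters was above 0 in the mean under the alternatives run; at dox 0.1 it was 0.91 with a pseudocount of 0.1, beside 0.66. The proximal domain minus the rest was above 0 too. With the domain up to 15000000 it was 0.81, 0.89, 1.15 and 1.32 in dose order, and with the domain up to 5000000 it was 1.33 at dox 0.1 and 0.47 at dox 100.

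With fewer than 10 counts in both cultures taken as no RNA, the share was 1.32% at dox 0 and 3.95% at dox 0.01. With 0 counts in at least 1 culture it was 0.329%, 0.987%, 28.6% and 65.1% in dose order. With a single culture it was 0% to 0.329%, 0.329% to 0.658%, 15.8% to 25% and 53.6% to 57.6%; with a DNA minimum of 100 it was 7.98% at dox 0.1 and 39.4% at dox 100. Keeping chains, 12 as reported, numbered 8 without pool A, 7 without pool B, 5 without pool C and 4 without pool D. Leaving out a pool also removes reporters that could form a chain of any class. Chains of 3 or more gave 2 that fully lost RNA, beside 0. All neighbours under 10 kb at dox 0.1 had r of 0.771 and 0.704 with pseudocounts of 0.1 and 5, beside 0.741. The checks without a pool for chains, chains of 3, pseudocounts for neighbours and strand, and the domain without its largest increase were chosen after seeing the data.

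Of 1126 values of named reporters under alternatives, 1026 kept their side of the threshold, 64 lost the call and 35 gained it. The other 1 was a call that reversed direction, at 56743659 at dox 100 (−0.47 for library totals). Direction was compared only for reporters called in the reported fit, so a change of sign without a call is not counted here. Of 504 window medians, 190 moved by more than the spread between cultures. Causes were not tested. Among reporters without RNA at dox 100, the depth at dox 0 limits how large a decrease could be seen.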
